A study of Homo sapiens with 18 samples.

Results

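The condensin complex genes are the 8 genes that encode the subunits of the human condensin I and condensin II complexes. They were chosen by subunit name and not by their counts, although earlier results of these data were known. SMC2 and SMC4 encode the ATPase core that both complexes share, NCAPD2, NCAPG and NCAPH the other subunits of condensin I, and NCAPD3, NCAPG2 and NCAPH2 those of condensin II. Of the 8 genes, 7 have a row among the 20705 genes of the count table, and SMC4 was not analysed here. RNA was sequenced, after TruSeq library preparation, from CHL1 and A375 cells, established human melanoma lines, in 18 libraries that fall into 9 groups of 2 replicates. CHL1, which the study describes as wild type for BRAF and NRAS and mutant for p53, was grown in DMEM with DMSO for 72 hours (control), 1 µM palbociclib for 72 hours or 6 days, or 500 nM GSK3326595 for 72 hours. A375, a BRAF-mutant line with wild-type p53 grown in RPMI-1640, had the same 4 groups and a second DMSO control at 6 days. Palbociclib is a CDK4/6 inhibitor (CDK4/6i) and GSK3326595 a PRMT5 inhibitor (PRMT5i). All CHL1 treatments share the 72-hour control, which is the only CHL1 control here, so treatment and time cannot be told apart in the 6-day CHL1 comparison. Both lines carry the genotype label WT. Nothing in the labels says that replicates were separate cultures, so p-values measure the spread between these libraries.

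Condensins are ring-shaped complexes in which the SMC ATPases are closed by a kleisin subunit (NCAPH or NCAPH2) that carries HEAT-repeat subunits (NCAPD2 and NCAPG, or NCAPD3 and NCAPG2). They extrude loops of DNA and compact chromosomes for mitosis. Condensin II is in the nucleus throughout the cell cycle, whereas condensin I reaches the chromosomes once the nuclear envelope breaks down. Proliferating cells make these subunits, and CDK4 and CDK6, the targets of palbociclib, phosphorylate RB to allow entry into S phase. PRMT5 methylates arginines of histones and of splicing proteins. In bulk RNA, fewer cells in the cycle phases that use a gene and less of its RNA per cell cannot be told apart.

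In the promoters of these genes, 2 short elements of cell-cycle genes were looked for, since the members are known as late cell-cycle genes. These were the CHR, the cell-cycle homology element (letters TTTGAA or TTCGAA), and the CCAAT box (CCAAT), along with the E2F letters TTTCCCGC, TTTGGCGC and TTTCGCGC. Both strands were searched from 250 bases before to 50 bases after each RefSeq start, and no matches in the members' promoters overlapped. RefSeq (GRCh38.p14) held promoters for 7 of the 8 members. The SMC2 promoter at chr9:104094059-104094318 lies on the plus strand, as does that of NCAPD2 at chr12:6493852-6494111. NCAPG has chr4:17810729-17810988 on the plus strand and NCAPD3 has chr11:134223958-134224217 on the minus strand. The 4 are printed 5′ to 3′ from 250 bases before to 10 bases after the start, because they show the CHR at different distances and, in NCAPD3, all 3 elements. Capitals mark a match of either strand, so that TTCAAA shows the CHR read from the opposite strand. In the same way ATTGG shows the CCAAT box, and GCGGGAAA shows the first E2F letters.
SMC2: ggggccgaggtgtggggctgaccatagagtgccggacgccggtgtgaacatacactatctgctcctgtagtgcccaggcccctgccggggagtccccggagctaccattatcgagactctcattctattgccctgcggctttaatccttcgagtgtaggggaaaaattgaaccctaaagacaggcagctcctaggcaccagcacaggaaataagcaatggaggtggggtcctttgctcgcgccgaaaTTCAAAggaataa
NCAPD2: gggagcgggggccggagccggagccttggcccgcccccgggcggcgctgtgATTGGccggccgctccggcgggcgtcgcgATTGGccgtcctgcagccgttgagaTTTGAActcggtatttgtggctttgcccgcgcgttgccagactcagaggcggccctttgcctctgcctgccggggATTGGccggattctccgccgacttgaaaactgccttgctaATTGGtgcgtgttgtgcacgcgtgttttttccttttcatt
NCAPG: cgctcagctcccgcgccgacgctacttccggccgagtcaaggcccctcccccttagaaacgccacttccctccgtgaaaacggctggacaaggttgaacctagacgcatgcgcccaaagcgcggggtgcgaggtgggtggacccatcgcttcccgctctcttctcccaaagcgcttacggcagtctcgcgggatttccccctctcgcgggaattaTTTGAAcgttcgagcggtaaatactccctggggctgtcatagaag
NCAPD3: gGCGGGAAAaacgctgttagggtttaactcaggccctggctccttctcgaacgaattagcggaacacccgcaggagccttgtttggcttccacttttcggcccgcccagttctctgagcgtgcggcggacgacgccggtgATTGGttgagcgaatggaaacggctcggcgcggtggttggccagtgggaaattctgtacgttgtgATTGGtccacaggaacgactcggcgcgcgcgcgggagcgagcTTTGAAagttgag
The letters TTTGAA were found in 6 of the 7 members with a promoter, against 18.2% of 27305 genes. They begin 145 bases before the start in NCAPD2 and 35 bases before it in NCAPG, span the start itself in NCAPD3 and SMC2, and lie downstream of it, from position 36, in NCAPG2. SMC4 held them 75 bases before the first of its starts. Only 1 of 2 listed starts of NCAPD3, SMC2 and SMC4 had a match. NCAPH held no CHR letters in this window but a CCAAT box 112 bases before the start. CCAAT letters occurred in 3 of the 7 members, with 4 matches in NCAPD2 and 2 in NCAPD3, against 39.7% of genes. E2F letters occurred in NCAPD3 only among the members, 249 bases before the start, against 3.3% of genes. These matches describe the letters and are not evidence of binding.

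On GRCh37, the build of the counts, the genes lie on 7 chromosomes. The condensin I genes are NCAPD2 (chr12:6602522-6641121, plus strand, 32 exons), NCAPG (chr4:17812602-17846488, plus strand, 21 exons) and NCAPH (chr2:97001504-97042829, plus strand, 18 exons). The condensin II genes are NCAPD3 (chr11:134020008-134095398, minus strand, 35 exons), NCAPG2 (chr7:158423861-158497495, minus strand, 28 exons) and NCAPH2 (chr22:50946653-50963209, plus strand, 20 exons), and SMC2 (chr9:106856541-106903700, plus strand, 25 exons) encodes the core. Of the exonic bases of the canonical transcript, 35.6% in NCAPG lie under LCORL, 26.9% in NCAPD3 under JAM3 and a long non-coding RNA, and 36.4% in NCAPH2 under SCO2 and a long non-coding RNA. The study's methods give HTSeq at its default settings, which count by strand, but whether the libraries kept strand is not given in the sources used here. Values of these 3 genes may therefore include reads of the overlapping genes or lack some of their own.

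The libraries held 16213475 to 37424081 counts. Levels are given as CPM, the counts of a gene relative to the TMM-scaled library size (trimmed mean of M-values), which were scaled within each cell line and are compared within a line. MITF, the melanocyte lineage factor, was found in every library at 59 to 218 CPM. DCT, a pigment enzyme, was at 33.5 to 133 CPM in CHL1 but at most 1.87 CPM in A375. TYR, another pigment enzyme, did not exceed 0.0674 CPM in CHL1 or 5.17 CPM in A375. The 6 of 8 lineage markers in the table summed to 122 to 271 CPM, and the 5 of 7 markers of leukocytes, endothelium and epithelium to 4.71 to 17.3 CPM, of which the leukocyte gene PTPRC gave up to 15.7 CPM in CHL1. Of the epithelial markers, KRT5 was at 0 in all CHL1 libraries and reached 1.15 CPM in A375. KRT14 reached 0.441 CPM in CHL1 and had 1.58 to 11.3 CPM in A375. EPCAM had 0.431 to 1.07 and 0.96 to 2.69 CPM in CHL1 and A375. The endothelial VWF had 0 to 0.705 and 0.686 to 2.97 CPM. In both lines the markers of other cell types summed higher with CDK4/6i (9.26 to 17.3 CPM in CHL1 and 11.8 to 15.3 CPM in A375) than in the 72-hour controls (7.75 to 7.82 and 4.91 to 5.82 CPM), and with PRMT5i they were 14.4 to 15.9 and 7.12 to 7.31 CPM. The A375 controls of 6 days had 4.71 and 15 CPM. The part of these markers in the results was not tested.

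In 4 libraries the counts depended on the GC content of the gene. For each library the log2 deviation from the median of its line was taken, and the value of the GC-poorest 10% of genes was subtracted from that of the GC-richest 10%. PRMT5i-treated CHL1 had -2.48 and -1.97, and A375 after 6 days of DMSO had -2.27 and -1.12. The other 14 libraries were between -0.18 and 0.50. The members differ in GC content, from 37.6% in SMC2 and 38.7% in NCAPG, through 41.4% in NCAPG2, 46.1% in NCAPH, 49.8% in NCAPD3 and 51.6% in NCAPD2, to 61.3% in NCAPH2. Counts of called genes that rest on these 4 libraries are therefore also given after a GC correction, in which each library's smooth trend on GC content was removed over 13672 genes. Whether the trend arose in the cells or in library preparation was not tested.

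Levels between genes were compared as CPM per kilobase of the canonical transcript. In the CHL1 control, NCAPG2 had the highest level at 50.3 ± 4.12 CPM per kilobase (SD, n = 2), followed by the SMC2 core gene at 36.5 ± 3.82, NCAPD2 at 33.9 ± 2.08 and NCAPG at 29.3 ± 3.68. NCAPD3 followed at 21.7 ± 1.49, and the kleisin genes NCAPH and NCAPH2 were lowest at 14.2 ± 1.42 and 13.6 ± 1.14 CPM per kilobase. SMC2 and NCAPD2 did not differ beyond their spread, nor did NCAPD2 and NCAPG, nor the 2 kleisin genes. In the A375 control of 72 hours the order began with NCAPD2, a HEAT-repeat subunit of condensin I, at 110 ± 11.8 CPM per kilobase. NCAPG (33.9 ± 4.99), NCAPG2 (32.7 ± 2.44), NCAPD3 (29.9 ± 2.4) and SMC2 (26.6 ± 3.42) followed, with SD ranges that overlapped from each gene to the next. NCAPH2 (14.3 ± 0.815) and NCAPH (11.8 ± 0.954) were lowest. In the A375 control of 6 days NCAPG (48.9 ± 10.8), NCAPD2 (46.2 ± 11.2) and SMC2 (45.2 ± 9.65) overlapped, and NCAPG2 (27.7 ± 2.62) and NCAPD3 (21.6 ± 0.599) stood above NCAPH (7.61 ± 1.72) and NCAPH2 (6.6 ± 2.53). The kleisin genes were the lowest pair in all 9 groups. With treatment the first place was taken by SMC2 in CHL1 PRMT5i (87 ± 15 CPM per kilobase) and in CHL1 CDK4/6i of 6 days (33.7 ± 2.5, overlapping NCAPG2 at 31.8 ± 1.07), and by NCAPG2 in CHL1 CDK4/6i of 72 hours (31.9 ± 0.813). In treated A375 it was NCAPD2, at 52.4 ± 2.28 with CDK4/6i for 72 hours, 38.2 ± 3.52 for 6 days and 87.5 ± 0.474 with PRMT5i. These levels were not corrected for GC content. CHL1 PRMT5i and the A375 control of 6 days are the groups with the strong GC trend, and SMC2 and NCAPG are the GC-poorest members. The part of the trend in the order of the genes was not tested. The plot of levels by library shows all 7 genes in the 9 groups.

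**Figure D1:**
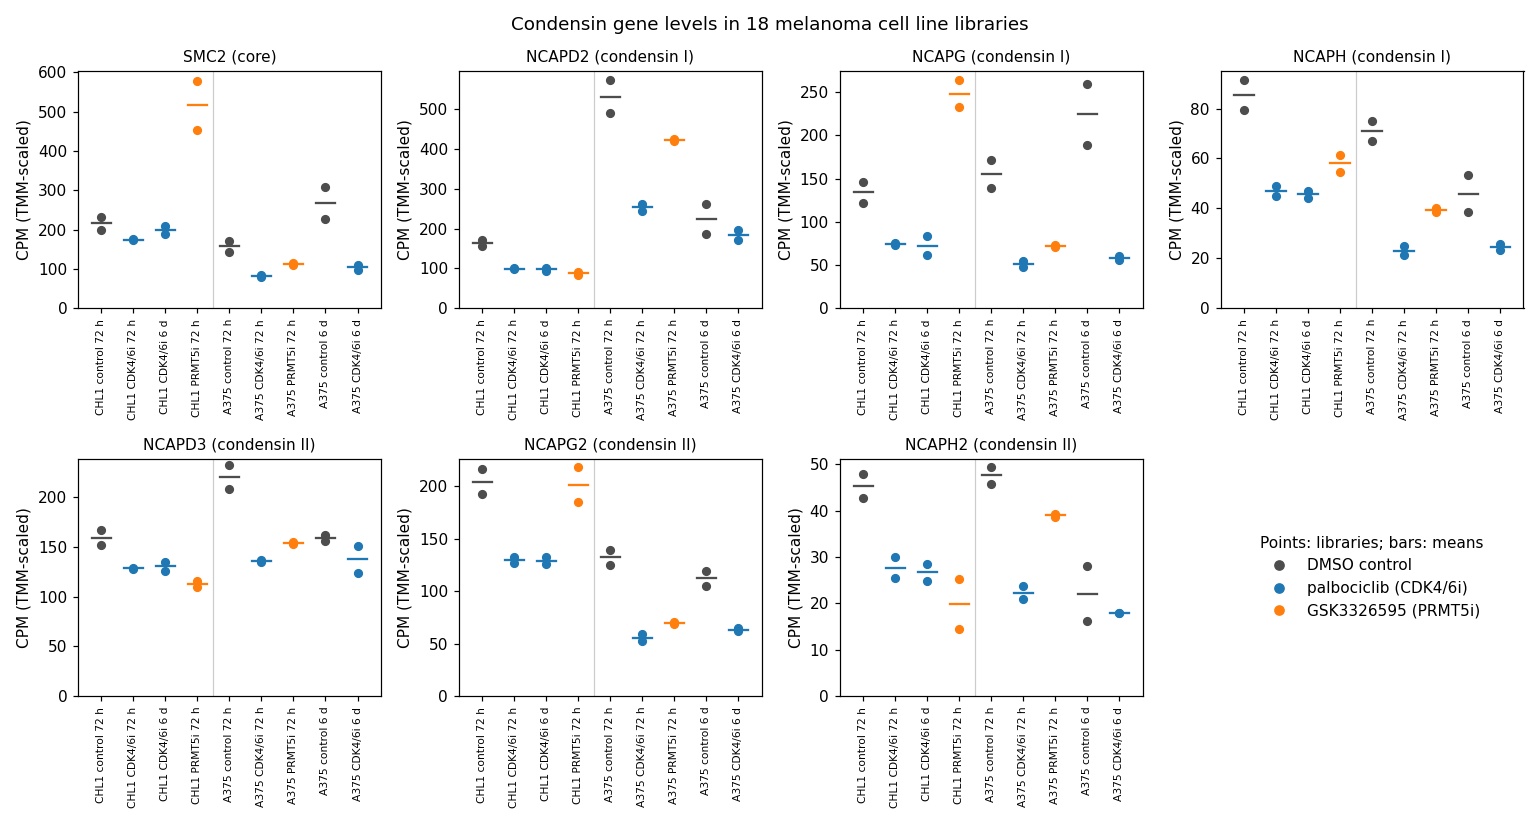
Levels of the 7 measured condensin genes in CPM (vertical axes, from 0) in the 9 groups (horizontal axis), with a point for each library and a bar for the group mean. In A375 at 72 hours the CDK4/6i libraries lie below both control libraries for every gene, and in CHL1 the PRMT5i libraries are the highest of all 18 for SMC2, at 453 and 579 CPM. The levels were not corrected for GC content.

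The first question was how the condensin genes respond to CDK4/6i. In A375 at 72 hours, all 7 measured genes were lower than in the control, with fold changes of 0.324 (NCAPH) to 0.618 (NCAPD3). Of all genes in the table, 13.3% were DEGs (differentially expressed, a Benjamini-Hochberg adjusted p below 0.05 over all genes in edgeR's quasi-likelihood test), and 7.11% were DEGs with a lower level. The median log2 fold change was -1.09 over the 7 genes and 0.00 over all genes. The core gene SMC2 had 143 and 172 CPM in the control libraries and 84.3 and 79.7 CPM with CDK4/6i, a log2 fold change of -0.94 ± 0.19 (SE, adjusted p = 0.00423). NCAPH, the kleisin of condensin I, had 67 and 75.1 CPM in the control and 21.3 and 24.8 CPM with CDK4/6i. Its log2 fold change of -1.63 ± 0.20 was the largest of the 7 (adjusted p = 8.01e-05), and the groups did not overlap. NCAPG, which binds DNA in condensin I, went from 139 and 172 CPM to 47.4 and 54.8 CPM (log2 fold change -1.60 ± 0.20, adjusted p = 8.85e-05). NCAPD2 went from 490 and 571 CPM to 245 and 261 CPM (log2 fold change -1.07 ± 0.20, adjusted p = 0.00235). In each of these genes both treated libraries lay below both controls.

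In condensin II the fall was largest in NCAPG2, from 125 and 139 CPM in the A375 controls to 52.7 and 58.7 CPM with CDK4/6i at 72 hours (log2 fold change -1.25 ± 0.17, adjusted p = 0.000188). The kleisin gene NCAPH2 had 45.7 and 49.5 CPM in the control and 23.7 and 20.9 CPM with CDK4/6i (log2 fold change -1.09 ± 0.23, adjusted p = 0.00508). NCAPD3 changed least, from 208 and 233 CPM to 135 and 137 CPM (log2 fold change -0.69 ± 0.17, adjusted p = 0.0148). The groups did not overlap for any of the 3 genes. The count of 7 held with GC correction, against 15.8% of genes called lower in that fit. The libraries of all 7 genes lay below the controls without overlap, as did those of 33.1% of all genes. The count of calls was 4 without A375 control replicate 2 or without either CDK4/6i library, and 6 without control replicate 1, and NCAPG, NCAPH and NCAPG2 were called in all 10 fits that left out a library.

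In CHL1, 72 hours of CDK4/6i gave lower levels of 4 of the 7 genes, against 4.98% of all genes called in either direction and 2.72% called lower. The log2 fold changes of all 7 were negative, with a median of -0.71 against 0.00 over all genes. All condensin I subunits were among the 4. NCAPH had 91.6 and 79.4 CPM in the control libraries and 48.9 and 44.8 CPM with CDK4/6i (log2 fold change -0.87 ± 0.16, adjusted p = 0.0117). NCAPG had 146 and 122 CPM in the control and 72.7 and 75.3 CPM with CDK4/6i (log2 fold change -0.86 ± 0.18, adjusted p = 0.0215). NCAPD2 had 170 and 156 CPM and then 101 and 98.4 CPM (log2 fold change -0.71 ± 0.15, adjusted p = 0.019). The treated libraries were below the controls without overlap in these 3 genes.

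Of the condensin II genes in CHL1 at 72 hours, NCAPG2 passed the test, with 216 and 192 CPM in the control and 132 and 127 CPM with CDK4/6i (log2 fold change -0.66 ± 0.15, adjusted p = 0.0328). NCAPH2 had a log2 fold change of the same size as NCAPD2 but a wider error (-0.71 ± 0.23, adjusted p = 0.105), with 48 and 42.7 CPM and then 29.9 and 25.5 CPM. NCAPD3 had a log2 fold change of -0.32 (95% interval -0.63 to -0.00, adjusted p = 0.248) and SMC2 of -0.31 (-0.67 to 0.05, adjusted p = 0.333). For these 3 genes the treated libraries also lay below both controls, so that all 7 did, against 28.1% of all genes. With GC correction 5 genes were called lower, NCAPH2 being the addition, against 8.7% of genes. Without any 1 of the 4 compared libraries none of the 7 genes passed at adjusted p below 0.05, and in those fits 103 to 136 genes of the whole table did.

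After 6 days of CDK4/6i in CHL1, 5 of the 7 genes were lower than in the 72-hour control, against 16.6% of all genes called in either direction and 7.8% called lower. They were the 3 condensin I genes with NCAPG2 and NCAPH2. NCAPH had 46.9 and 44.3 CPM (log2 fold change -0.91 ± 0.16, adjusted p = 0.00338) and NCAPG 83.9 and 61.4 CPM (-0.88 ± 0.18, adjusted p = 0.00738). NCAPD2 had 101 and 93.9 CPM (log2 fold change -0.75 ± 0.15, adjusted p = 0.00607), NCAPG2 132 and 126 CPM (-0.66 ± 0.15, adjusted p = 0.0128) and NCAPH2 28.6 and 24.8 CPM (-0.76 ± 0.23, adjusted p = 0.045). The call of NCAPH2 was lost with replicate number as a block (adjusted p = 0.0807) and with genes of low counts dropped (adjusted p = 0.0514). The libraries of all 5 and of NCAPD3 lay below the controls, against 28.6% of all genes. SMC2, at 210 and 190 CPM, overlapped the control libraries, with a log2 fold change of -0.11 (95% interval -0.48 to 0.25), and NCAPD3, at 135 and 126 CPM, had -0.29 (-0.61 to 0.02). Without control replicate 1 the count was 1 (NCAPH) and without control replicate 2 it was 2.

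The 2 times of CDK4/6i in CHL1 were also compared with each other, where the shared control drops out. None of the 7 genes was called in edgeR's quasi-likelihood test, against 0.0145% of all genes, none had an unadjusted p below 0.05 (7.89% of all genes did), and DESeq2 also called 0. The log2 differences between 6 days and 72 hours ranged from -0.05 to 0.20. Of the 95% intervals, that of NCAPH2 was the widest, from -0.56 to 0.46, and differences inside these intervals remain compatible with the data. SMC2 had the difference of 0.20 (-0.17 to 0.56, adjusted p = 0.839).

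In A375 after 6 days of CDK4/6i, 4 of the 7 genes were lower than in the 6-day control, against 43.1% of all genes called in either direction and 21.3% called lower. SMC2 had 309 and 228 CPM in the control and 111 and 97.2 CPM with CDK4/6i (log2 fold change -1.37 ± 0.19, adjusted p = 8.41e-05). NCAPG had 260 and 189 CPM and then 60.7 and 55.9 CPM (log2 fold change -1.94 ± 0.20, adjusted p = 7.5e-06). NCAPH had 38.5 and 53.2 CPM and then 25.9 and 23.5 CPM (log2 fold change -0.89 ± 0.19, adjusted p = 0.00182). In these genes, and in NCAPG2 (105 and 119 CPM against 64.5 and 62 CPM, log2 fold change -0.83 ± 0.17, adjusted p = 0.0012), the groups did not overlap. NCAPD2 had 185 and 261 CPM in the control and 196 and 172 CPM with CDK4/6i, which overlapped (log2 fold change -0.28, 95% interval -0.69 to 0.14). NCAPH2 overlapped too, with 16.1 and 28 CPM against 17.9 and 18 CPM (-0.29, -0.77 to 0.18), and NCAPD3 had 156 and 162 CPM against 151 and 124 CPM (-0.21, -0.58 to 0.16). Thus 5 of the 7 genes had both treated libraries below both controls, against 31% of all genes.

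This comparison rests on the 6-day A375 controls, whose GC trend differed between the replicates. With GC correction all 7 genes were called lower, against 20.9% of genes in that fit. NCAPG was still the member with the largest change (log2 fold change -1.26 ± 0.13, adjusted p = 7.98e-05), followed by NCAPH (-0.92 ± 0.17, adjusted p = 0.00166) and NCAPH2 (-0.83 ± 0.13, adjusted p = 0.000644). SMC2 was at -0.57 ± 0.12 (adjusted p = 0.00453) and NCAPD2 at -0.64 ± 0.13 (adjusted p = 0.00338). The correction lowered the size of the change in the GC-poor genes SMC2, NCAPG and NCAPG2 and raised it in the GC-rich NCAPD2, NCAPD3 and NCAPH2. The 6-day and 72-hour A375 controls themselves differed in 47.8% of all genes, with NCAPD2 at -1.25 and NCAPH2 at -1.11. Set against the 72-hour A375 control, which comes from another library naming series, 7 genes were called lower, with NCAPD2 at -1.53 and NCAPH2 at -1.41. The share of all genes called against that control is not given here. Without control replicate 1 of 6 days the count was 6.

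The 2 A375 controls differ in time and in library naming series, which cannot be told apart, and 6 of the 7 genes differed between them, against 47.8% of all genes (24% higher at 6 days and 23.8% lower). SMC2 (log2 difference 0.77 ± 0.19, adjusted p = 0.00394) and NCAPG (0.53 ± 0.19, adjusted p = 0.0321) were higher at 6 days. NCAPD2 (-1.25 ± 0.20, adjusted p = 0.000197), NCAPH2 (-1.11 ± 0.23, adjusted p = 0.00111), NCAPH (-0.63 ± 0.19, adjusted p = 0.013) and NCAPD3 (-0.47 ± 0.17, adjusted p = 0.0354) were lower. With GC correction 0 were higher, SMC2 and NCAPG being at -0.15 (adjusted p = 0.344) and -0.28 (adjusted p = 0.104), and 4 were lower, NCAPD2, NCAPH, NCAPG2 and NCAPH2, against 42.4% of genes called in that fit (16.6% higher and 25.9% lower). Without A375 control replicate 1 of 72 hours the count was 3, all lower.

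**Figure D2:**
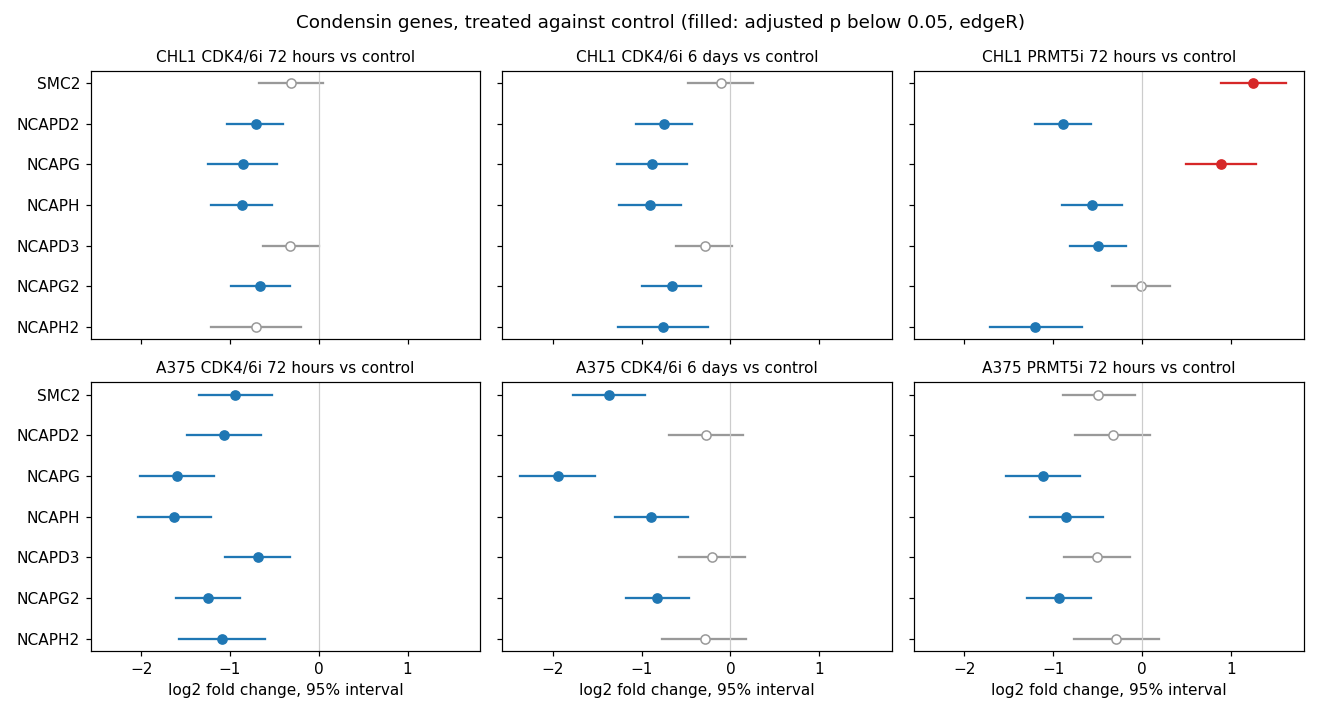
Log2 fold changes of the 7 condensin genes against control (horizontal axis) in the 6 treatment comparisons, with 95% intervals. Filled points passed an adjusted p of 0.05 in edgeR (blue lower, red higher) and open grey points did not. The CDK4/6i panels hold values below 0 only, and SMC2 at 1.25 and NCAPG at 0.89 in CHL1 PRMT5i are the only values above 0 that passed, neither of which passed after GC correction.

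The second question was whether PRMT5i changes the condensin genes in the same way. In CHL1, PRMT5i gave 2 higher and 4 lower genes of the 7, against 54% of all genes called, 26.4% higher and 27.6% lower. SMC2 had 232 and 200 CPM in the control and 579 and 453 CPM with PRMT5i, a log2 fold change of 1.25 ± 0.17 (adjusted p = 0.000154). NCAPG rose from 146 and 122 CPM to 264 and 233 CPM (log2 fold change 0.89 ± 0.18, adjusted p = 0.00135). Both were called in all 8 fits that left out a library. NCAPD2 was lower, with 84.6 and 91.5 CPM against 170 and 156 CPM (log2 fold change -0.89 ± 0.15, adjusted p = 0.000394). NCAPH was at 61.4 and 54.7 CPM (-0.56 ± 0.16, adjusted p = 0.00927) and NCAPD3 at 116 and 110 CPM (-0.50 ± 0.14, adjusted p = 0.0116). NCAPH2 had 14.4 and 25.2 CPM against 48 and 42.7 CPM, the lowest fold change of the 7 and the widest spread between treated replicates (log2 fold change -1.20 ± 0.24, adjusted p = 0.00118). NCAPG2, at 218 and 185 CPM, overlapped its controls (-0.01, 95% interval -0.34 to 0.32).

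The order of these changes followed the GC content of the members apart from NCAPH and NCAPD3, the GC-poorest SMC2 being highest and the GC-richest NCAPH2 lowest. With GC correction, 0 genes were higher and 3 were lower, against 34.8% of genes called, 17.9% of them lower. NCAPH was at -0.67 ± 0.12 (adjusted p = 0.00237), NCAPG2 at -0.66 ± 0.12 (adjusted p = 0.00264) and NCAPD2 at -0.41 ± 0.11 (adjusted p = 0.0156). SMC2 (0.23 ± 0.16, adjusted p = 0.283), NCAPG (-0.03 ± 0.13, adjusted p = 0.87), NCAPD3 (-0.21 ± 0.12, adjusted p = 0.184) and NCAPH2 (-0.01 ± 0.13, adjusted p = 0.959) did not pass. Only NCAPD2 and NCAPH were called lower both ways. Without CHL1 control replicate 1 the uncorrected count was 4, with NCAPH and NCAPD3 not passing.

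**Figure D3:**
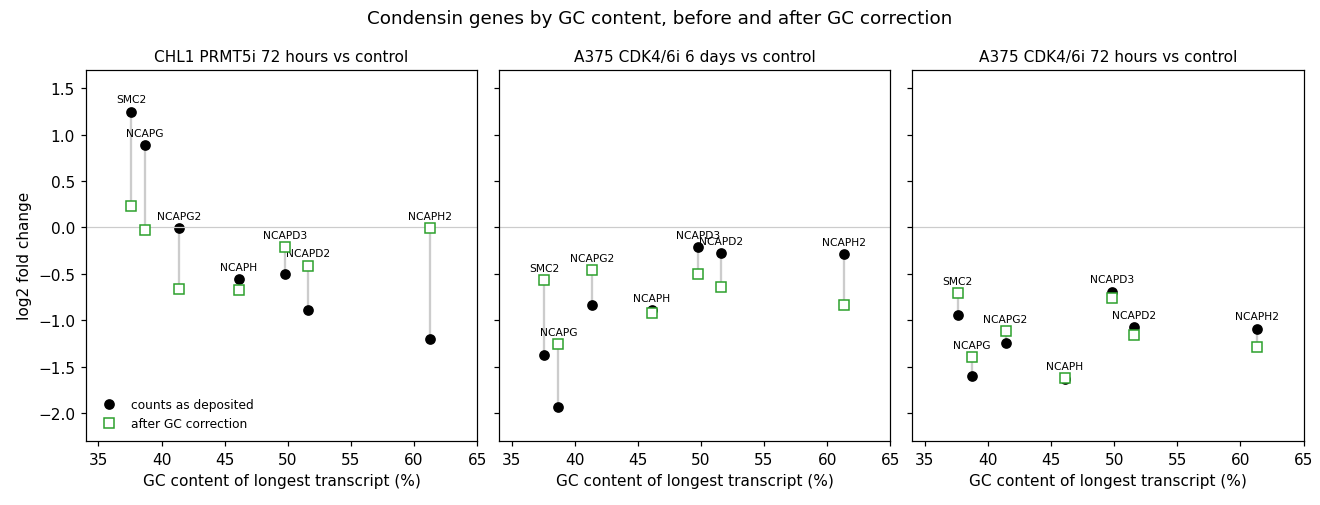
Log2 fold change (vertical axis) of the 7 condensin genes against the GC content of the longest transcript in percent (horizontal axis), from counts as deposited (black circles) and after GC correction (open green squares), in 3 comparisons with control. In CHL1 PRMT5i the uncorrected values run from 1.25 in SMC2 (37.6% GC) to -1.20 in NCAPH2 (61.3% GC). The corrected ones run from 0.23 in SMC2 to -0.67 in NCAPH (46.1% GC), with NCAPH2 at -0.01. In A375 CDK4/6i at 72 hours the 2 sets of values lie close together.

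In A375, PRMT5i at 72 hours gave 3 lower genes of the 7 and none higher, against 2.61% of all genes called and 1.74% called lower. NCAPG had 139 and 172 CPM in the control and 73.1 and 70.6 CPM with PRMT5i (log2 fold change -1.11 ± 0.19, adjusted p = 0.00816). NCAPG2 had 125 and 139 CPM and then 68.8 and 70.1 CPM (log2 fold change -0.93 ± 0.17, adjusted p = 0.0102), and NCAPH 67 and 75.1 CPM and then 38.7 and 40 CPM (-0.85 ± 0.19, adjusted p = 0.0281). The other 4 members did not pass, although their treated libraries, as those of the 3, lay below both controls, against 27.1% of all genes. NCAPD3 had a log2 fold change of -0.51 (95% interval -0.88 to -0.14, adjusted p = 0.141), SMC2 of -0.49 (-0.89 to -0.08, adjusted p = 0.206), NCAPD2 of -0.33 (-0.75 to 0.09, adjusted p = 0.445) and NCAPH2 of -0.29 (-0.76 to 0.19, adjusted p = 0.585). The median over the 7 genes was -0.51, against 0.00 over all genes. With GC correction 4 genes were called lower, against 6.41% of genes. The count depended on which libraries gave the spread, being 5 in a fit of the 6 libraries of 72 hours or of the 2 compared groups, 5 without either 6-day control library, 2 without either CDK4/6i library of 72 hours and 0 without any 1 of the 4 compared libraries. In a fit of those 6 libraries with replicate number as a block, all 7 members were called lower, as part of 6113 genes called in the whole table, and the correlations of replicate differences between the 3 groups of 72 hours were 0.215 to 0.475.

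The 2 inhibitors were then compared directly at 72 hours. In A375, 2 of the 7 genes were higher with PRMT5i than with CDK4/6i, against 5.45% of all genes called and 2.37% called higher. They were NCAPH (log2 difference 0.77 ± 0.20, adjusted p = 0.0326) and NCAPD2 (0.74 ± 0.20, adjusted p = 0.0411). NCAPH2 missed the threshold with a similar difference (0.80 ± 0.23, adjusted p = 0.0506). All 7 log2 differences were above 0, from 0.18 in NCAPD3 to 0.80, and the PRMT5i libraries lay above the CDK4/6i libraries for each gene, against 30.9% of all genes. Neither call held in every fit that left out a library. In those fits the log2 difference was 0.67 to 0.89 in NCAPH and 0.69 to 0.78 in NCAPD2. With the 6 libraries of 72 hours and replicate number as a block the count was 6, all members but NCAPD3, as part of 7167 genes.

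In CHL1, 3 of the 7 genes were higher with PRMT5i than with CDK4/6i at 72 hours, against 57.8% of all genes called and 28.4% called higher. They were NCAPG (log2 difference 1.75 ± 0.18, adjusted p = 2.18e-05), SMC2 (1.56 ± 0.17, adjusted p = 2.5e-05) and NCAPG2 (0.64 ± 0.15, adjusted p = 0.00319). With GC correction 4 were higher, against 24.3% of genes. NCAPG (0.76 ± 0.14, adjusted p = 0.00126) and SMC2 (0.48 ± 0.16, adjusted p = 0.0294) were among them, NCAPG2 was not (-0.09 ± 0.12, adjusted p = 0.575), and NCAPH2 (0.86 ± 0.13, adjusted p = 0.000497) and NCAPD2 (0.32 ± 0.11, adjusted p = 0.0337) came in. NCAPG and SMC2 were called higher in both fits.

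Whether the lines respond differently was tested as an interaction over all 18 libraries, as the CHL1 response minus the A375 response. For CDK4/6i at 72 hours none of the 7 genes was called by edgeR, against 0.642% of all genes, and DESeq2 also called 0. At an unadjusted p below 0.05, 4 genes passed, against 10% of all genes, and the 7 differences ranged from 0.30 to 0.70, all on the side of a smaller fall in CHL1. For CDK4/6i at 6 days 2 genes were called, both higher in CHL1, against 21.9% of all genes (12.4% higher), SMC2 with a difference of 1.24 ± 0.26 (adjusted p = 0.00308) and NCAPG with 1.05 ± 0.27 (adjusted p = 0.0113). With GC correction 0 were called, with SMC2 at 0.40 ± 0.21 (adjusted p = 0.175) and NCAPG at 0.35 ± 0.19 (adjusted p = 0.19), against 25.4% of genes called in that fit. With each library left out in turn, the uncorrected difference at 6 days was 0.97 to 1.45 in SMC2 and 0.77 to 1.26 in NCAPG. The call of NCAPG did not hold in every such fit. For PRMT5i 5 genes were called, against 40.9% of all genes (18.8% higher in CHL1 and 22.1% lower). NCAPG (1.97 ± 0.27, adjusted p = 0.00015), SMC2 (1.71 ± 0.26, adjusted p = 0.000226) and NCAPG2 (0.88 ± 0.21, adjusted p = 0.00295) were higher in CHL1, and NCAPH2 (-0.94 ± 0.34, adjusted p = 0.0318) and NCAPD2 (-0.60 ± 0.23, adjusted p = 0.0489) lower. With GC correction 2 remained called, NCAPG (0.98 ± 0.19, adjusted p = 0.00246) and SMC2 (0.61 ± 0.21, adjusted p = 0.0455), against 25.9% of genes called (13.4% higher). Uncorrected, the count was 3 without CHL1 control replicate 1, CHL1 PRMT5i replicate 1, A375 control replicate 1 of 72 hours or either A375 PRMT5i library, and NCAPG, SMC2 and NCAPG2 were called in all 18 fits that left out a library. Line and library naming series cannot be told apart in the 72-hour differences.

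Genes that work with condensin were followed as 3 lists. Their counts stand against the shares of all genes called in either direction, which with CDK4/6i were 4.98% in CHL1 at 72 hours, 16.6% in CHL1 at 6 days, 13.3% in A375 at 72 hours and 43.1% in A375 at 6 days (42.4% with GC correction). With PRMT5i they were 54% in CHL1 (34.8% with GC correction) and 2.61% in A375. Values of single list genes below are before GC correction. Cohesin, the SMC complex that holds sister chromatids together, was measured in all 17 of its listed subunits and regulators. CDK4/6i called 4 lower and 0 higher in CHL1 at 72 hours, 6 and 0 at 6 days, and in A375 10 and 0 at 72 hours and 13 and 1 at 6 days, the last becoming 12 and 0 with GC correction. PRMT5i called 3 lower and 0 higher in A375. In CHL1, PRMT5i called 11 higher and 3 lower, which became 3 higher and 1 lower with GC correction. The median log2 fold change of the list was 0.93 in that comparison (0.17 with GC correction) and between -1.03 and -0.40 in the other 5. ESPL1, which encodes the separase that cleaves cohesin, was lower with CDK4/6i at 72 hours in CHL1 (104 ± 10.5 against 57.1 ± 2.33 CPM, SD, n = 2) and in A375 (129 ± 9.29 against 47.6 ± 3.56 CPM), with log2 fold changes of -0.87 and -1.43. SGOL1, the shugoshin that protects centromeric cohesion, had 60 ± 16.4 CPM in the A375 control of 6 days and 14 ± 0.944 CPM with CDK4/6i (log2 fold change -2.10).

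SMC5/6, the third SMC complex, which acts in DNA repair, had 5 of its 7 listed genes in the table. In CHL1, CDK4/6i called 1 of them lower at each time, NSMCE2, the SUMO ligase of the complex (log2 fold change -0.87 ± 0.19 at 72 hours and -1.24 ± 0.19 at 6 days). In A375, 4 were lower at each time, and 4 at 6 days with GC correction. PRMT5i called 3 higher in CHL1, against 54% of all genes called, with SMC5 at 1.95 ± 0.18 and SMC6 at 1.63 ± 0.16, and the count was 3 higher with GC correction as well, against 34.8% called. In A375 PRMT5i called NSMCE2 lower (-0.80 ± 0.19).

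Condensin regulators and partners, which include the mitotic kinases that phosphorylate the complexes, had 17 of 18 genes in the table. CDK4/6i called 4 lower and 0 higher in CHL1 at 72 hours, 6 and 0 at 6 days, 9 and 0 in A375 at 72 hours, and 11 and 3 in A375 at 6 days (9 and 1 with GC correction). PRMT5i called 4 lower and 0 higher in A375 and 6 in each direction in CHL1, which became 2 higher and 3 lower of 17 with GC correction, against 34.8% of genes called. CDK1, the kinase that activates condensin at mitosis, was lower in A375 with CDK4/6i at 72 hours (106 ± 13.2 against 30.7 ± 0.527 CPM, log2 fold change -1.78, edgeR adjusted p = 9.79e-05). With PRMT5i in A375 it was at 58.6 ± 3.9 CPM (-0.85), a call just under the threshold (edgeR adjusted p = 0.0498). In CHL1 with PRMT5i, before GC correction, CDK1 was higher, at 282 ± 22.7 against 94.5 ± 7.91 CPM (1.58). MKI67, which coats mitotic chromosomes, fell in CHL1 whether CDK4/6i lasted 72 hours or 6 days, with log2 fold changes of -1.18 and -1.17, and in A375 at 72 hours (-1.71).

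The balance between condensin I and condensin II was taken in each library as the log2 ratio of the mean CPM per kilobase of NCAPD2, NCAPG and NCAPH to that of NCAPD3, NCAPG2 and NCAPH2. In CHL1 it was -0.13 and -0.16 in the controls, -0.39 and -0.35 after 72 hours of CDK4/6i, -0.34 and -0.47 after 6 days of it, and 0.20 and 0.21 with PRMT5i. In A375 it was 0.98 and 1.06 in the 72-hour controls, 0.75 and 0.83 with CDK4/6i and 1.14 and 1.13 with PRMT5i. At 6 days it was 0.97 and 0.80 in the A375 controls and 0.48 and 0.46 with CDK4/6i. The CDK4/6i libraries lay below and the PRMT5i libraries above their own controls in both lines, and every A375 library lay above every CHL1 library. With PRMT5i the pairs of related subunits did not all move this way in either line, as given below. These ratios, a score over the members, are a description with no test. The zero of this scale depends on the transcript lengths used. They were not corrected for GC content.

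**Figure D4:**
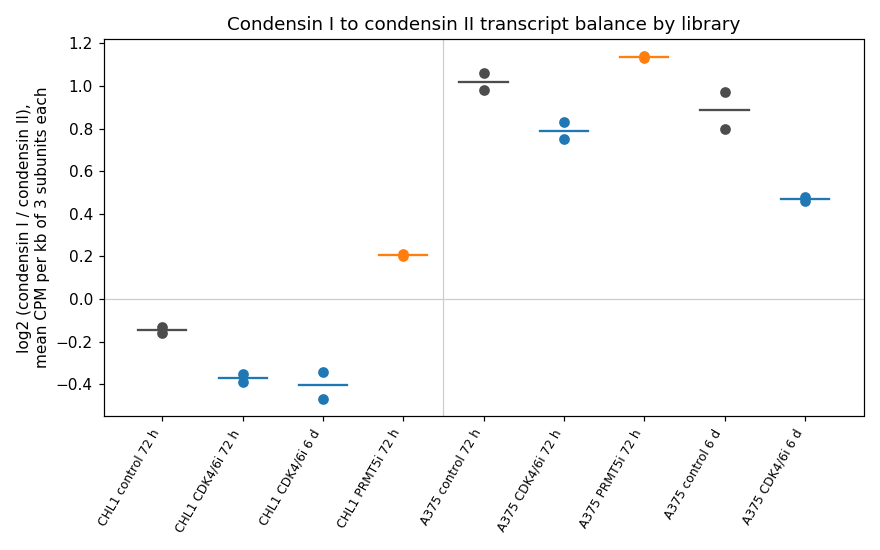
Log2 ratio of the mean level of the 3 condensin I genes to that of the 3 condensin II genes, in CPM per kilobase (vertical axis), for each library (points) and group mean (bars) on the horizontal axis. CHL1 libraries lie between -0.47 and 0.21 and A375 libraries between 0.46 and 1.14.

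Among the pairs of related subunits, NCAPD2 over NCAPD3 had the largest difference between the 72-hour controls of the lines. The log2 ratio was 1.85 and 1.91 in the A375 controls of 72 hours and 0.64 and 0.65 in the CHL1 controls. With CDK4/6i at 72 hours it was 1.47 and 1.54 in A375 and 0.26 and 0.24 in CHL1. NCAPG over NCAPG2 was -0.03 and 0.12 in the A375 controls of 72 hours and -0.74 and -0.83 in the CHL1 controls. NCAPH over NCAPH2 was -0.30 and -0.25 in the A375 controls and 0.08 and 0.04 in the CHL1 controls, so that the kleisin pair was the only one of the 3 whose ratio was not higher in A375 in these controls. With PRMT5i in A375, NCAPD2 over NCAPD3 was higher than in the controls (2.06 and 2.07). NCAPG over NCAPG2 (-0.09 and -0.17) and NCAPH over NCAPH2 (-0.87 and -0.81) were lower. With PRMT5i in CHL1, NCAPD2 over NCAPD3 was lower than in the controls (0.15 and 0.35). NCAPG over NCAPG2 (0.09 and 0.15) and NCAPH over NCAPH2 (1.24 and 0.26) were higher. The pair ratios were not corrected for GC content.

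Patterns over the 9 groups were compared as Pearson's r of group means of log2(CPM + 1), each taken relative to the mean over the groups of its cell line. All groups of a line share its centring, and the comparison is a description over 9 points. SMC2 and NCAPG had r = 0.95 and NCAPD2 and NCAPH2 r = 0.98, while NCAPH2 and SMC2 had r = -0.21 and the condensin I genes NCAPD2 and NCAPG r = 0.15. SMC2 and NCAPG have 37.6% and 38.7% GC, and NCAPD2 and NCAPH2 51.6% and 61.3%. The search covered 10556 non-member genes whose mean CPM was 10 or more. Those most like SMC2 were ECT2, CEP57L1 and C4orf21, each with r = 0.996 and 37.7% to 38.3% GC. NCAPG was most like NDC80 (0.996), DEPDC1B (0.995) and STAG1 (0.994), NCAPD2 like CDCA5 (0.993), PLK1 (0.986) and CDT1 (0.984), and NCAPH like CDC45 (0.990), HIST1H1D (0.987) and FAM83D (0.987). For NCAPD3 they were CCNF (0.984), TROAP (0.977) and MICAL3 (0.968), for NCAPG2 they included CDC25C (0.984) and KIF4A (0.982), and for NCAPH2 CDT1 (0.987), CDCA5 (0.980) and RFC2 (0.979).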

How the data were processed

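The authors deposited a table named as normalised with edgeR, which holds whole numbers per gene for all 18 libraries, with totals that differ between libraries (16213475 to 37424081). The deposited values were therefore treated as read counts, which the authors made with HTSeq at its default settings. The submitters' processing notes name FastQC 0.11.6, HISAT2 2.0.4, Picard 2.17.3, SAMtools 1.18, HTSeq 0.11.2 and edgeR with GRCh37 (hg19). Whether the libraries kept strand is not given in the sources used here. Groups came from the labels, and replicates differed by more than counting error (chi-square per degree of freedom 6.96 to 110).

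All 20705 genes were fitted with edgeR 4.0.16 (R 4.3.3, limma 3.58.1) by the quasi-likelihood test with TMM scaling, within each line or over all 18 libraries for line differences, with p-values adjusted by Benjamini-Hochberg at a threshold of 0.05. Error terms of log2 fold changes are standard errors. The scripts were tested on simulated data. Lengths, GC content and positions came from a GRCh37 annotation, matched by symbol. GC correction removed a loess trend (span 0.4) of each library over 13672 genes, those with a GC value of the 15677 genes averaging 1 CPM or more.

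All members were named in each comparison with a control, and of each other list at most the 3 called genes with the largest change. Likeness took the 3 genes with the highest r, of which 1 is not reported here. Alternatives were a replicate block, GC correction, other sets of libraries, leaving out each library, dropping genes of low counts, scaling by median of ratios and DESeq2 1.42.0. Members and lists were chosen with earlier results of these data known.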

Additional observations from a re-analysis of the deposited data

Results flagged for a closer look

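In 7 cases the response of a condensin gene differed between the lines by the interaction test of edgeR (CHL1 response minus A375 response, log2, adjusted p below 0.05 over all genes). For CDK4/6i at 6 days these were SMC2 (1.24) and NCAPG (1.05), where the control was of 72 hours in CHL1 and of 6 days in A375. For PRMT5i they were NCAPG (1.97), SMC2 (1.71), NCAPG2 (0.88), NCAPH2 (-0.94) and NCAPD2 (-0.60). With GC correction the values at 6 days were 0.40 for SMC2 and 0.35 for NCAPG, and with PRMT5i 0.98 for NCAPG, 0.61 for SMC2, 0.20 for NCAPG2, 0.36 for NCAPH2 and -0.04 for NCAPD2. Of these corrected values only those of NCAPG and SMC2 with PRMT5i passed (adjusted p = 0.00246 and 0.0455). The interaction of NCAPD2 with PRMT5i passed in 4 of the 18 fits that left out a library and that of NCAPH2 in 13 of 18.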

How the results depend on the processing

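With 2 libraries per group, counts of called condensin genes moved with the libraries left out, with the following ranges. They were 0 to 5 in CHL1 CDK4/6i at 72 hours, 1 to 5 at 6 days and 4 to 6 in CHL1 PRMT5i. In A375 they were 4 to 7 in CDK4/6i at 72 hours, 4 to 6 at 6 days and 0 to 5 in PRMT5i. For PRMT5i against CDK4/6i they were 3 to 4 in CHL1 and 0 to 5 in A375. Between the A375 controls they were 3 to 7, and for the line differences 1 to 4 at 6 days and 3 to 5 with PRMT5i. A lone library was assumed to vary like the other groups. Apart from CHL1 CDK4/6i at 72 hours, the numbers of all genes called in fits that left out a library are not given. Counts of members from those fits are therefore not read as results about the members. The counts were 0 in every such fit for CHL1 CDK4/6i of 6 days against 72 hours and for the line difference at 72 hours.

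GC correction changed the CHL1 PRMT5i count from 6 to 3, that of A375 CDK4/6i at 6 days from 4 to 7, and the line differences to 0 at 6 days and 2 with PRMT5i. It reversed NCAPG in CHL1 PRMT5i (-0.03). In CHL1 PRMT5i against CDK4/6i it reversed NCAPD2 (0.32), NCAPD3 (0.10), NCAPG2 (-0.09) and NCAPH2 (0.86), and between the A375 controls NCAPG (-0.28) and SMC2 (-0.15). In the corrected fit of the line difference at 6 days NCAPH (0.07), NCAPD3 (0.22) and NCAPG2 (-0.15) had the other sign, and with PRMT5i NCAPD3 (0.33) and NCAPH2 (0.36). On the same genes without the correction NCAPH was already 0.07 and NCAPD3 0.00 at 6 days, and NCAPD3 already 0.04 with PRMT5i. The signs of NCAPH at 6 days and of NCAPD3 with PRMT5i were thus already the other way on that set of genes. In the main fit these values were -0.03 ± 0.24 and -0.02 ± 0.21, smaller than their standard errors. The share of higher genes among all called went with GC correction from 43.4% to 54% in A375 PRMT5i against CDK4/6i, from 50.2% to 39% between the A375 controls, from 37.6% to 54.5% in the line difference at 72 hours, and from 100% to 66.7% of 3 genes in CHL1 of 6 days against 72 hours. All genes called went from 1032 to 2186 in CHL1 CDK4/6i at 72 hours and from 11176 to 4761 in CHL1 PRMT5i. In A375 they went from 8928 to 5795 with CDK4/6i at 6 days and from 541 to 1410 with PRMT5i. For these shares and numbers the uncorrected fit covered 20705 genes and the corrected fit 13672. Without the correction, those 13672 genes gave 909 calls in CHL1 CDK4/6i at 72 hours and 9514 in CHL1 PRMT5i.

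With median-of-ratios scaling and with DESeq2 alike, NCAPG2 was 0.04 in CHL1 PRMT5i, NCAPD3 -0.01 in CHL1 of 6 days against 72 hours, NCAPH 0.03 in the line difference at 6 days and NCAPD3 0.09 in that with PRMT5i. DESeq2 called 1675 genes in CHL1 CDK4/6i at 72 hours and 901 in A375 PRMT5i. Fitting only the compared groups gave 5 members in A375 PRMT5i (1861 genes in all), 5 in A375 PRMT5i against CDK4/6i, 2 between the A375 controls and 0.07 for NCAPG2 in CHL1 PRMT5i, and 4202, 6940 and 5862 genes in CHL1 CDK4/6i at 72 hours and A375 CDK4/6i at 72 hours and 6 days. A fit of the 6 A375 libraries of 72 hours, chosen after seeing the data, gave 5 members with PRMT5i (3265 genes) and 6 for PRMT5i against CDK4/6i, and 6424 genes with CDK4/6i. The 72-hour control, which differed from the 6-day control in 47.8% of all genes, gave 7 in A375 CDK4/6i at 6 days. Counts of members that stand here without a number of all genes called are not read as results about the members. The cause of these changes was not tested.

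Replicate numbers are shared between groups but only 2 exist, and the labels do not say what they mark. Correlations of replicate differences were -0.338 to 0.447 over 6 pairs of groups in CHL1 and 0.215 to 0.475 over 3 pairs in A375 at 72 hours. With a replicate block, 7 members were called in A375 PRMT5i (6113 genes) and 6 in A375 PRMT5i against CDK4/6i, and 8752 genes in A375 CDK4/6i at 72 hours. The block with GC correction gave 7 and 7 in these A375 comparisons and 3 in CHL1 PRMT5i, with NCAPG at -0.03, and in CHL1 PRMT5i against CDK4/6i 0.32 for NCAPD2, 0.10 for NCAPD3, -0.09 for NCAPG2 and 0.87 for NCAPH2. The numbers of all genes called are not given for the block with GC correction. Its counts are therefore not read as results about the members. The block changed no other count of members by over 1.5 times. The A375 libraries of 6 days carry no replicate number in the labels and were not blocked.

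Directions that reversed with a library left out had ranges of -0.14 to 0.10 (NCAPG2, CHL1 PRMT5i) and -0.64 to 0.16 (NCAPH2, A375 CDK4/6i at 6 days). In CHL1 of 6 days against 72 hours the ranges were -0.08 to 0.02 (NCAPD2), -0.27 to 0.18 (NCAPG), -0.10 to 0.00 (NCAPH), -0.03 to 0.07 (NCAPD3), -0.04 to 0.03 (NCAPG2) and -0.16 to 0.05 (NCAPH2). In the line differences they were -0.27 to 0.15 (NCAPH) and -0.20 to 0.09 (NCAPD3) at 6 days, and -0.15 to 0.12 (NCAPD3) with PRMT5i. The condensin I to II balance with the longest transcripts, an alternative chosen after seeing the data, was 0.19, -0.02, -0.05 and 0.57 in CHL1 control, CDK4/6i at 72 hours and 6 days and PRMT5i. In A375 it was 1.36, 1.15 and 1.47 in control, CDK4/6i and PRMT5i at 72 hours, and 1.26 and 0.85 in control and CDK4/6i at 6 days.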
